A study of Argopecten irradians concentricus with 9 samples.

Results

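Alternative oxidase was represented by 1 gene model, evm.TU.Contig517.94, among the 28864 gene models measured in scallop adductor muscle. It was selected on its measured values in these libraries, namely its low level at low water temperature against room and high temperature, and was identified through its annotation. Its levels across the temperature groups are therefore given as a description, with no test. Its protein match was Q9P959, mitochondrial alternative oxidase, and it was the only model in the table that carried the Pfam alternative oxidase domain. No other model had the enzyme in its protein name.

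Alternative oxidase sits in the inner mitochondrial membrane and takes electrons directly from ubiquinol, reducing oxygen to water. The usual route passes electrons from complexes I and II through ubiquinone to complex III, cytochrome c and complex IV, with protons pumped along the way. The alternative branch skips complexes III and IV, so it keeps electrons moving without pumping protons at those steps, and it is insensitive to cyanide. It is best known from plants, where cold induces it in many species, and from fungi and protists. Vertebrates lack it, while many marine invertebrates, bivalves included, have kept a gene for it.

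The animals were bay scallops, Argopecten irradians concentricus, aged 1 year, and the tissue was adductor muscle, the shell-closing muscle. RNA was sequenced from 3 groups, defined by room, high and low water temperature, with 3 libraries each. The room temperature group was the control, and no genetic change or added agent was part of any group. The labels give neither the temperatures in degrees nor the duration, and they do not say whether libraries of a group came from separate tanks, so the spread between libraries may be partly technical. The sequencing gave between 11716140 reads (high 2) and 16229040 reads (room 3) assigned to genes per library.

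Levels are in FPKM, reads scaled for the length of the gene model, so genes of different length can be set side by side. Libraries were scaled by a size factor for each, not by their own total of reads. Adductor muscle markers summed to between 64160 and 174534 FPKM in every library, whereas none of 26 digestive gland models reached a mean of 1 FPKM and 9 were listed at 0 throughout. Models for ciliary proteins summed to between 19.5 and 32.3 FPKM in the room, 18.1 and 29.7 in the high and 13.1 and 21.5 in the low temperature libraries. Synaptic genes summed to between 24.3 and 43.1 FPKM over all libraries, and 8 gonad models to between 5.66 and 12.0. Library high 3 stood apart on the first principal component and library low 3 on the second, and results that rest on them are given with and without them. In bulk tissue, fewer cells of a type that uses a gene and less RNA of that gene per cell cannot be told apart. The part that other cell types played in the alternative oxidase levels was not tested.

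The model lies on Contig517, from base 1665063 to base 1673406 on the plus strand. It spans 8344 bases and has a transcript length of 1269 bases, so exons make up a minor part of the span. The assembly is that of the deposited table, and its name is not given in the sources used here. No other model overlapped it. Whether reads from similar sequence elsewhere were placed on it was not examined. Of 93 gene models on the contig, 29 were abundant enough to test, meaning a mean of at least 1 FPKM over the 9 libraries.

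Its immediate neighbourhood was close to silent in muscle. The 3 models before it match echinoidin, a lectin, ornithine decarboxylase, which starts polyamine synthesis, and antizyme inhibitor 2, a regulator of that enzyme. Their mean levels were 0.0129, 0.244 and 0.387 FPKM. The 3 models after it were one with no annotation, 9934 bases away on the other strand, a match to FYVE and coiled-coil domain-containing protein 1, and evm.TU.Contig517.96, listed at 0 in every library. Of these 6 neighbours, the nearest unannotated one had the greatest mean, 0.915 FPKM, and its group means were 0.909 in the room, 0.666 in the high and 1.17 in the low temperature libraries. None of the 6 passed the filter for testing.

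In the room temperature libraries alternative oxidase stood at 5.69, 4.31 and 5.66 FPKM, a mean of 5.22 ± 0.79 (SD, n = 3). In the high temperature libraries it stood at 4.37, 7.5 and 4.87 FPKM, a mean of 5.58 ± 1.68 (SD, n = 3). In the low temperature libraries it stood at 0.634, 0.816 and 0.798 FPKM, a mean of 0.749 ± 0.1 (SD, n = 3). Every low temperature library was below every room and every high temperature library, whereas the room and high ranges overlapped.

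The order of the group means was thus low, room, high, and only the step from low to the other two exceeded the spread between libraries. The mean was 6.96-fold higher at room than at low temperature, and the lowest room library was still 5.28-fold above the highest low one. The high temperature mean was 7.45-fold above the low and 1.07-fold above the room temperature mean. On the log2(FPKM + 1) scale the low minus room difference was -1.82, the high minus room difference 0.06 and the high minus low difference 1.88. The low and high comparisons with room share the same room libraries.

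**Figure D1:**
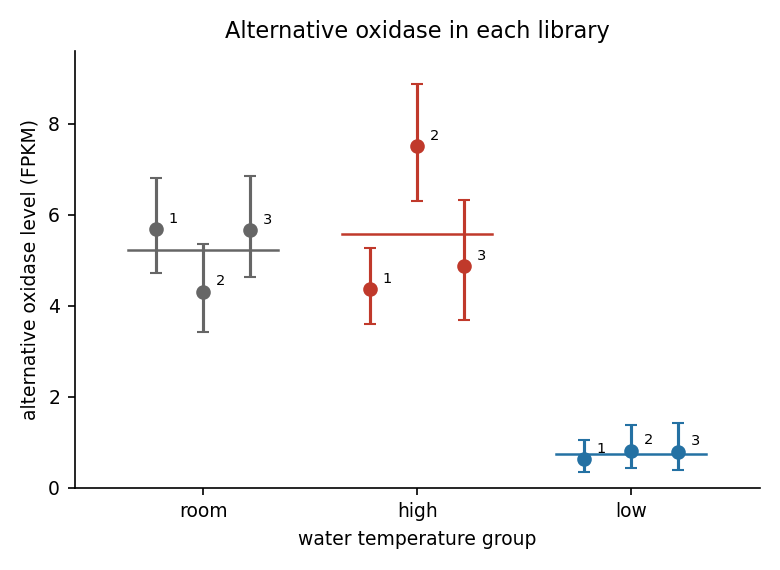
Alternative oxidase level in FPKM (vertical axis, from 0) in each of 9 libraries, by water temperature group. Points are libraries labelled by replicate, vertical bars are exact Poisson 95% intervals that cover counting error only, and horizontal lines are group means. The low temperature libraries, at 0.634 to 0.816 FPKM, lie below all others.

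The values rested on modest numbers of reads. The gene drew 121, 81 and 103 reads in the room, 110, 137 and 56 in the high and 15, 14 and 11 in the low temperature libraries. Exact Poisson 95% intervals, which cover counting error only, ran from 0.355 to 1.05, 0.446 to 1.37 and 0.398 to 1.43 FPKM in low 1, low 2 and low 3. The lowest bound in the other groups was 3.42 FPKM, in room 2. These intervals describe the depth behind each library and are no comparison of the temperature groups. Within the low group the intervals overlapped throughout, and differences among those 3 libraries were not detectable at this depth. Library high 2, at 7.5 FPKM with an interval of 6.3 to 8.87, was clear of high 1, whose interval was 3.59 to 5.27.

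Among the 8624 models tested, which passed by their mean over all 9 libraries, alternative oxidase sat at percentiles 63.8, 57.2 and 64.2 in the room temperature libraries. It sat at percentiles 58.5, 71.5 and 59.3 at high temperature and at 5.1, 7.1 and 8.4 at low temperature. It passed that filter through the room and high temperature libraries, so a low rank in the low temperature libraries follows from the filter and from the values it was chosen by. By size of the low minus room difference, it ranked 32nd from the most negative among the models tested, a rank that also follows from the choice.

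The pattern did not rest on the libraries that stood apart or on the scaling in the table. Without high 3 and low 3 the low minus room difference was -1.84 and the high minus room difference 0.13. Scaled by assigned reads instead and without gene length, its CPM was 7.96, 5.61 and 6.35 in the room, 7.79, 11.7 and 4.02 in the high and 1.12, 0.952 and 0.88 in the low temperature libraries. The sign of the small high minus room difference did depend on single libraries, at -0.14 without high 2 and -0.05 without room 2.

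Across all genes, limma called few differences. At a Benjamini-Hochberg adjusted p under 0.05, 0.151% of the models tested were called between low and room temperature, which is 13 models, all lower at low temperature. Between high and room temperature 0% were called, with 825 models at an unadjusted p under 0.05, and voom, run on reads recovered from the table, also called 0. Between high and low temperature 0.162% were called, 13 higher and 1 lower at high temperature. These counts depended on single libraries, since the low against room count was 0 without low 1 or low 3 and the high against low count was 6 without low 2 or low 3. Alternative oxidase was chosen from these same contrasts, so its place among them carries no weight here.

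The genes around the enzyme in the respiratory chain and its surroundings were collected by name or domain in 15 lists of 186 models, of which 152 were abundant enough to test. By limma none of the 152 was called in any of the 3 comparisons, and voom also called 0 in each. At an unadjusted p under 0.05 there were 6 in low against room, which is 3.95% against 8.16% of all models tested. There were 12 in high against room, 7.89% against 9.57%, and 11 in high against low temperature, 7.24% against 11.9%. In 19 models, or 12.5%, the low and room temperature libraries did not overlap, against 15.3% of all models tested. For high against room it was 21 models, 13.8% against 16.5% of all models, and for high against low 13 models, 8.55% against 17.2% of all models. All of these shares were below those of all models tested.

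The respiratory chain comprised 49 models for complexes I to IV and cytochrome c, of which 48 were tested. Complexes I and II feed electrons into ubiquinone ahead of both routes, while complex III, cytochrome c and complex IV form the cytochrome route that runs beside alternative oxidase. Their median low minus room difference was -0.25 on the log2(FPKM + 1) scale, with 41 below 0 and 7 above, beside -0.037 for all models tested. The median high minus room difference was -0.08, beside -0.031 for all, and was -0.42 without high 3 and 0.19 without high 1. None of the 48 came near the -1.82 of alternative oxidase, the lowest being -0.94, but alternative oxidase was chosen by its low against room difference. That contrast with the chain genes therefore follows from the choice and is given as a description. The 41 subunits of complexes I to IV that are not of mitochondrial genome type had a median of -0.27 in low against room, which ran from -0.42 without low 2 to -0.02 without low 1 when 1 library was left out. Their high minus room median of -0.1 ran from -0.46 without high 3 to 0.13 without high 1. Their high minus low median of 0.19 ran from -0.17 without high 3 to 0.45 without high 1, with -0.09 without low 1 and 0.31 to 0.34 without high 2, low 2 or low 3. All of these medians thus depended on single libraries in size, and the last pair also in sign. The medians of separate lists given below are mostly followed by their values without high 3, high 1, low 3 or low 1. Not every list median is given.

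**Figure D2:**
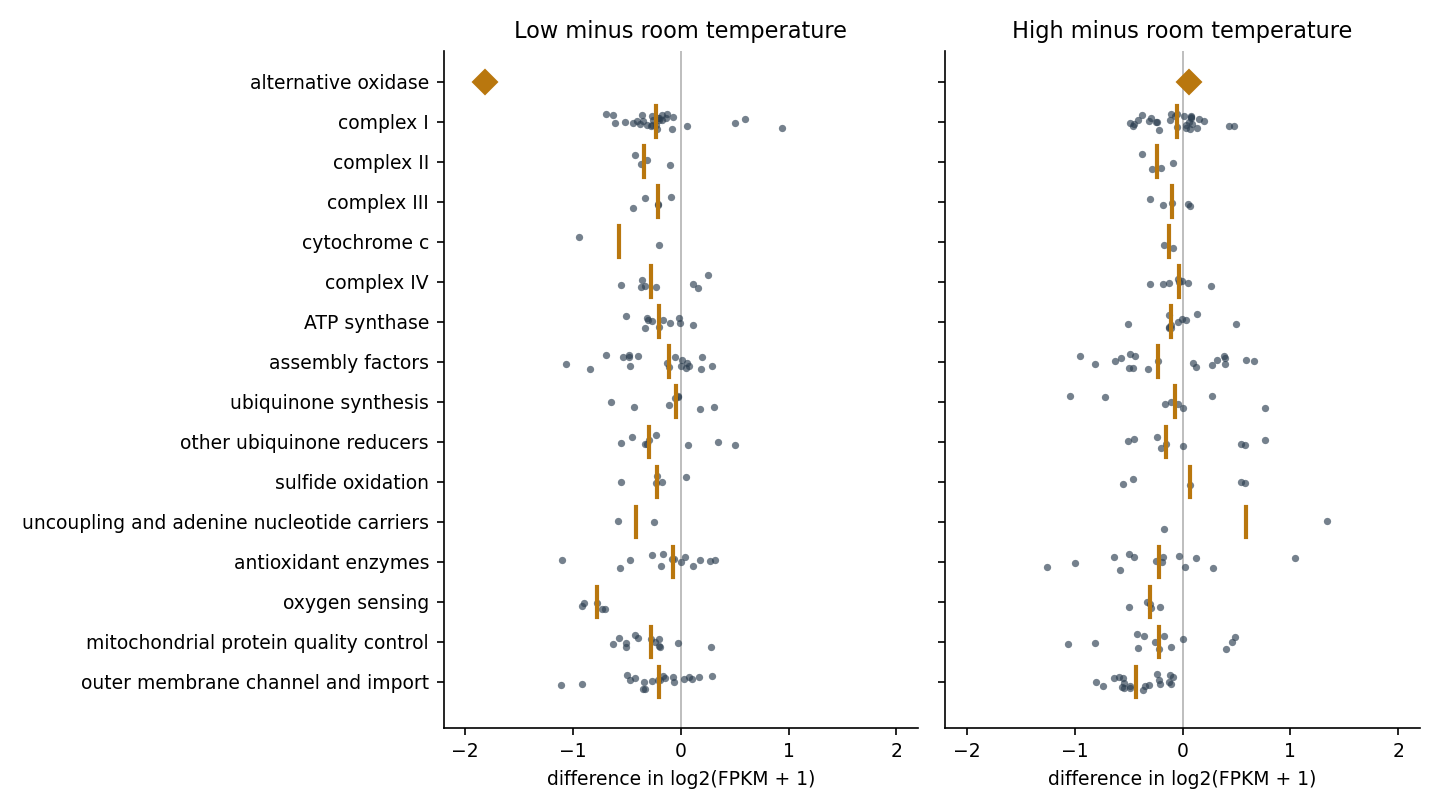
Difference in log2(FPKM + 1) of each tested gene in 15 lists, low minus room (left) and high minus room (right). Points are genes, bars are list medians and the diamond is alternative oxidase, which lies at -1.82 in the left panel, beyond every listed gene, and at 0.06 in the right panel. The gene was chosen by its low temperature level, so its place in the left panel follows from that choice.

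Complex I, which passes electrons from NADH to ubiquinone, had 29 tested models. Of these, 25 lay below 0 in low against room temperature, with a median of -0.23, which was -0.4 without low 3 and 0.08 without low 1, and a range of -0.69 to 0.94. A member with the NDUFA12 domain, evm.TU.Contig126.97, was measured at 3.13, 6.89 and 3.06 FPKM at room, 3.42, 6.17 and 3.26 at high and 2.92, 1.55 and 2.72 at low temperature. Its low range was below both others, yet the low minus room difference of -0.61 ± 0.333 (SE) had a limma adjusted p of 0.673. The model named 1 alpha subcomplex subunit 12, evm.TU.Contig830.9, was far more abundant, at a mean of 188.1 FPKM. It read 157.9, 214.1 and 194.3 FPKM at room, 128.8, 192.6 and 313 at high and 91.52, 197.9 and 202.8 at low temperature. Its groups overlapped, and its low minus room difference was -0.28. Complex II, which feeds electrons from succinate, had 4 models. Their median was -0.34 in low against room, or -0.36 without low 3 and -0.26 without low 1. In high against room the complex II median was -0.24, or -0.51 without high 3 and -0.16 without high 1. Its b560 membrane subunit, evm.TU.Contig781.6, stood at 43.8 ± 6.68, 34.2 ± 11 and 33.4 ± 1.39 FPKM (SD, n = 3) at room, high and low temperature.

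Complex III takes ubiquinol from the same pool as alternative oxidase and passes the electrons to cytochrome c. Its 5 models had a median low minus room difference of -0.21, which was -0.31 without low 3 and 0.08 without low 1. Their median high minus room difference was -0.1, which was -0.57 without high 3 and 0.29 without high 1. No pair of groups was separated in any of them. Cytochrome c1, evm.TU.Contig155.61, stood at 482, 583 and 748 FPKM at room, 409.9, 500.4 and 1190 at high and 397, 642 and 687 at low temperature. The groups overlapped broadly, and high 3 held the highest value.

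Because both enzymes draw on ubiquinol, the level of alternative oxidase was also expressed as a percentage of the median FPKM of the 5 complex III models in the same library. It was 1.31, 0.847 and 0.959% in the room, 1.33, 1.78 and 0.627% in the high and 0.237, 0.146 and 0.177% in the low temperature libraries. The group means were 1.04 ± 0.242, 1.25 ± 0.581 and 0.187 ± 0.0463% (SD, n = 3). The low libraries lay below all others, which follows largely from the values alternative oxidase was chosen by and is no second result. Per length, alternative oxidase transcripts were thus about 1% as abundant as those of a middling complex III gene at room temperature, and a smaller share at low temperature. The denominator itself varied most within the high group, from 328 to 777 FPKM, and ran from 268 to 558 FPKM in the low group. The share is of RNA and says nothing of electron flow.

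**Figure D3:**
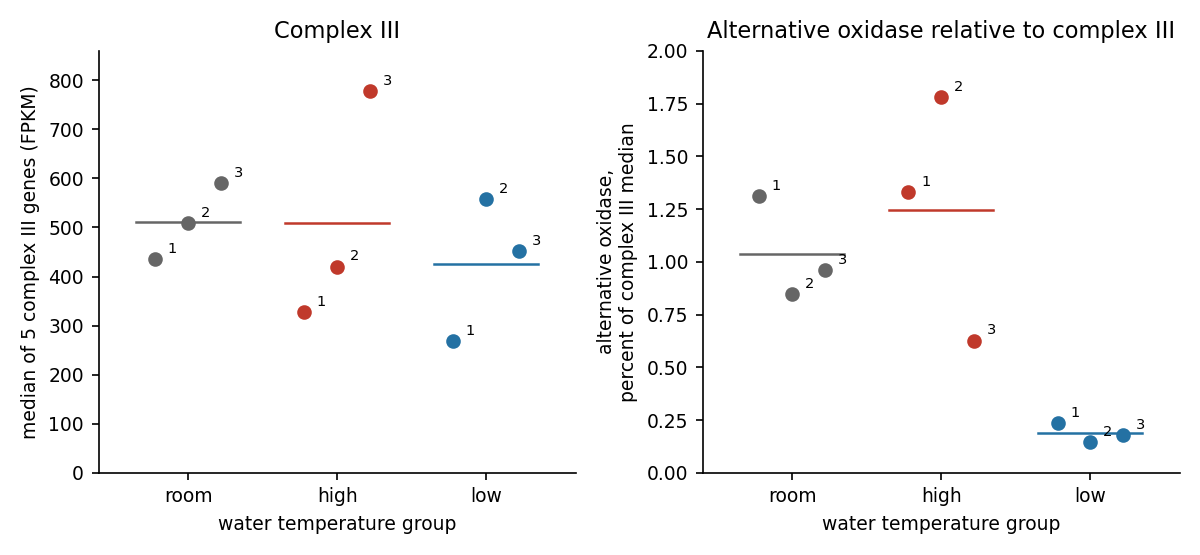
Left, the median FPKM of 5 complex III genes in each library. Right, alternative oxidase as a percentage of that median. Points are libraries labelled by replicate and lines are group means. Complex III overlaps between all groups, whereas the percentage is 0.146 to 0.237 in the low temperature libraries and at least 0.627 elsewhere. That gap follows largely from the values by which alternative oxidase was chosen.

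Cytochrome c carries electrons from complex III to complex IV, and 2 of its 3 models were tested. The abundant one, evm.TU.Contig228.82, stood at 1069.9 ± 283, 1128 ± 725 and 1009.6 ± 509 FPKM (SD, n = 3) at room, high and low temperature. The adjacent model evm.TU.Contig228.83 stood at 88.8, 104 and 103 FPKM at room, 69.4, 107 and 90.1 at high and 34.9, 68.2 and 55.5 at low temperature. Its low range lay below both others, by a narrow margin against high 1. The low minus room difference of -0.94 ± 0.303 (SE) did not pass, with a limma adjusted p of 0.4. Both models are named cytochrome c and lie side by side without overlap. Whether their sequences are alike enough for reads to be split between them was not examined, so their separate values are uncertain to that extent.

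Complex IV, which reduces oxygen at the end of the cytochrome route, had 8 models with a median low minus room difference of -0.28, 5 below 0 and 3 above. This median was -0.4 without low 3 and 0.02 without low 1. A member with the subunit Vb domain, evm.TU.Contig172.109, was at 509.8 ± 137, 542 ± 316 and 403 ± 137 FPKM (SD, n = 3) at room, high and low temperature, and its groups overlapped. Subunits 1 and 3, which animals encode in mitochondrial DNA, were the most abundant, at 11971 ± 3573 and 10686 ± 3734 FPKM at room temperature (SD, n = 3).

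The 5 chain subunits of mitochondrial genome type lay on 2 contigs that held no other model. They are subunits 1 and 3 of complex IV and chains 1, 4 and 5 of complex I, and each lay above 0 in low against room temperature, with a median of 0.5 and a range of 0.16 to 0.94. Without low 3 the median was -0.08 and 2 of the 5 lay above 0, so the direction rested on that library. Chain 1 of complex I, evm.TU.Contig744.2, read 3679, 5433 and 14421 FPKM in low 1, low 2 and low 3, against 2916, 3602 and 7852 in the room libraries. The groups overlapped for all 5, and the lowest limma adjusted p was 0.744.

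ATP synthase, which uses the proton gradient, had 11 tested models with medians of -0.2 in low against room and -0.11 in high against room temperature. The first was -0.33 without low 3 and 0.09 without low 1, and the second -0.45 without high 3 and 0.2 without high 1. Its beta subunit, evm.TU.Contig228.122, stood at 519 ± 118, 378 ± 161 and 375 ± 147 FPKM (SD, n = 3) at room, high and low temperature. The 19 tested assembly factors had a median of -0.11 in low against room, or -0.26 without low 3 and -0.04 without low 1. In high against room it was -0.23, or -0.25 without high 3 and -0.02 without high 1. The copper chaperone that supplies complex IV was at 6.85 ± 0.766, 4.55 ± 0.562 and 8.35 ± 3.43 FPKM (SD, n = 3). Its high temperature libraries were below all the others, with a limma adjusted p of 0.598 against room and 0.355 against low temperature.

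Ubiquinone is the substrate of alternative oxidase once reduced, and 8 of 11 models for its synthesis were tested. Their median difference was -0.04 in low against room, which was -0.2 without low 3 and 0.11 without low 1. In high against room temperature it was -0.08, which was -0.5 without high 3 and 0.08 without high 1. The match to COQ8A, evm.TU.Contig6.254, an atypical kinase required for ubiquinone synthesis, stood at 2.9, 5.23 and 3.1 FPKM at room, 1.37, 1.48 and 0.951 at high and 3.24, 5.03 and 4.63 at low temperature. Every high temperature library was below every other library, so the pattern differed from that of alternative oxidase. The high minus low difference was -1.22 ± 0.263 (SE) with a limma adjusted p of 0.114, and 0.0371 with array quality weights. The hydroxylase named 5-demethoxyubiquinone hydroxylase, evm.TU.Contig81.127, was the most abundant of the list at 153 ± 16, 151 ± 90.6 and 144 ± 37 FPKM (SD, n = 3).

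Other enzymes that hand electrons to ubiquinone had 9 tested models with a median low minus room difference of -0.29, which was -0.24 without low 3 and -0.07 without low 1. Electron transfer flavoprotein subunit beta, evm.TU.Contig117.72, which collects electrons from fatty acid oxidation, stood at 62.4 ± 2.49, 57.2 ± 24.6 and 46.6 ± 12.7 FPKM (SD, n = 3) at room, high and low temperature. Sulfide:quinone oxidoreductase oxidises hydrogen sulfide, an inhibitor of complex IV, and its models are counted in this list and among the sulfide oxidation genes. One of them, evm.TU.Contig409.26, read 14, 8.25 and 11.2 FPKM at room, 15.7, 6.06 and 42.8 at high and 7.35, 11.1 and 4.34 at low temperature. Its high group mean rested on high 3, and the groups overlapped.

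The match to uncoupling protein 3, evm.TU.Contig124.80, belongs to a family of inner membrane carriers of which some let protons back across the membrane. Its levels were 4.54, 1.79 and 7.65 FPKM at room, 9.38, 11.8 and 15.2 at high and 2.04, 3 and 2.27 at low temperature. The high temperature libraries were above all others, and the room and low ranges overlapped. The high minus low difference of 1.92 ± 0.375 (SE) had a limma adjusted p of 0.0853, and the high minus room difference of 1.34 ± 0.375 had 0.352. The first of these passed in 3 alternatives, at 0.0474 with only the compared groups in the fit, 0.0429 with array quality weights and 0.0256 without room 2. The ADP,ATP carrier, evm.TU.Contig126.23, which exchanges ATP for ADP across the membrane, was at 1443 ± 186, 1375 ± 667 and 1271 ± 451 FPKM (SD, n = 3).

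**Figure D4:**
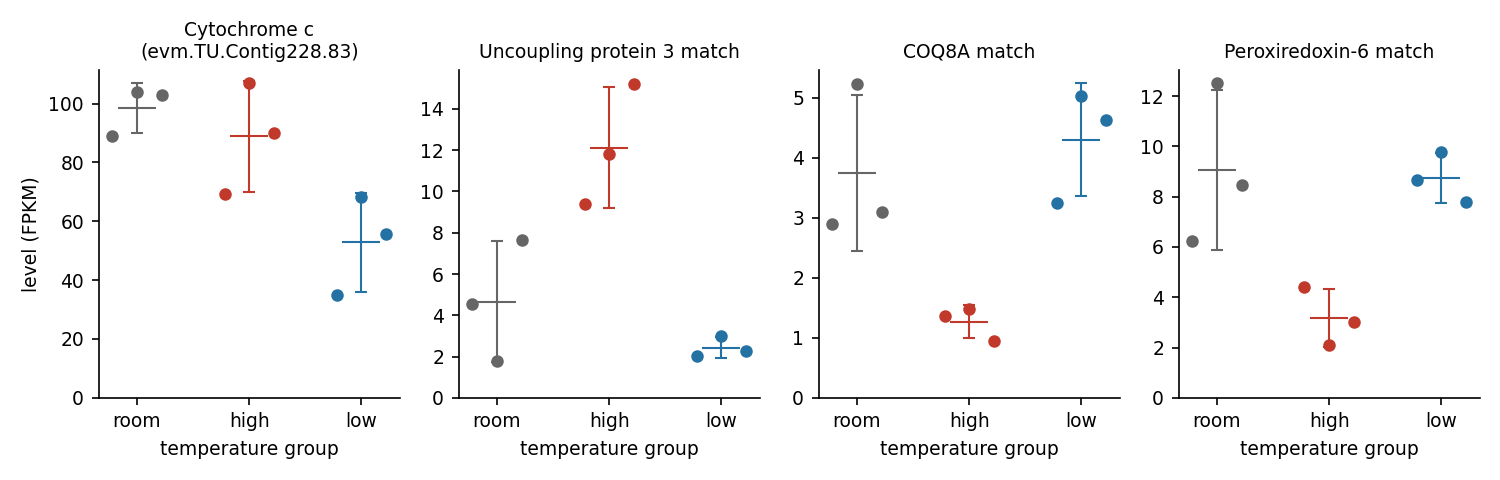
Level in FPKM (vertical axes, from 0) of 4 genes near alternative oxidase in the respiratory system, by temperature group. Points are libraries and bars are the mean ± SD. Cytochrome c evm.TU.Contig228.83 is lowest at low temperature, the uncoupling protein 3 match is highest at high temperature, and the COQ8A and peroxiredoxin-6 matches are lowest at high temperature. None of these differences passed the adjusted threshold.

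Antioxidant enzymes handle the superoxide and peroxide that an over-reduced chain produces. Of 27 models 14 were tested. Their median was -0.07 in low against room, or 0.02 without low 3 and -0.05 without low 1. In high against room temperature it was -0.22, or -0.42 without high 3 and -0.18 without high 1. Peroxiredoxin-6, evm.TU.Contig140.63, which reduces peroxides, read 6.22, 12.5 and 8.45 FPKM at room, 4.4, 2.09 and 3.03 at high and 8.66, 9.78 and 7.79 at low temperature. The high temperature libraries were below all others, with a high minus room difference of -1.26 ± 0.297 (SE) and a limma adjusted p of 0.315. Mitochondrial manganese superoxide dismutase, evm.TU.Contig368.44, was at 139.6 ± 29.6, 71.4 ± 28.9 and 94.1 ± 21.3 FPKM (SD, n = 3), with an adjusted p of 0.385 for high against room.

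The oxygen sensing genes had the lowest list median in low against room temperature, at -0.78 over 5 tested models, and all 5 lay below 0, from -0.92 to -0.7. Over the libraries left out in turn this median ran from -0.87 to -0.68. Of the 5, 4 had an unadjusted p under 0.05, against 8.16% of all models tested, and the lowest limma adjusted p was 0.486. Hypoxia-inducible factor 1-alpha, evm.TU.Contig284.70, the oxygen-regulated transcription factor, stood at 10.3 ± 2.59, 8.34 ± 3.16 and 5.93 ± 2.22 FPKM (SD, n = 3) at room, high and low temperature. Its asparaginyl hydroxylase, the match to hypoxia-inducible factor 1-alpha inhibitor, evm.TU.Contig104.156, read 10.8, 12.1 and 9.27 FPKM at room, 8.35, 5.36 and 16.1 at high and 4.71, 5.88 and 6.9 at low temperature. Its low libraries were below every room library but not below every high one. A match to the Von Hippel-Lindau protein, evm.TU.Contig275.41, which marks the factor for degradation, was at 6.47 ± 2.25, 4.8 ± 0.734 and 3.03 ± 1.46 FPKM (SD, n = 3).

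Mitochondrial protein quality control had 13 tested models with a median of -0.28 in low against room, with or without low 3. In high against room temperature it was -0.22, or -0.31 without high 3 and -0.13 without high 1. The mitochondrial 10 kDa heat shock protein, evm.TU.Contig1146.25, partner of the mitochondrial chaperonin, stood at 8 ± 1.09, 12 ± 5.31 and 5.35 ± 0.856 FPKM (SD, n = 3). Its low libraries were below all others, with a high minus low difference of 0.96 ± 0.298 (SE) and a limma adjusted p of 0.241. Prohibitin-2, evm.TU.Contig555.18, an inner membrane scaffold protein, stood at 47.6 ± 9.08, 48.7 ± 14.8 and 31.6 ± 4.86 FPKM (SD, n = 3), and its room and low ranges touched. Outer membrane channel and import genes had 20 tested models, all below 0 in high against room, beside 4587 of all 8624 models tested. Their median was -0.43, beside -0.03 for all models. Without high 3 the list median was -0.46 and 19 lay below 0, and without high 1 it was -0.34 and 18 lay below 0. In low against room 15 lay below 0, with a median of -0.2, which was -0.33 without low 3 and -0.06 without low 1. The channel VDAC2, evm.TU.Contig118.116, was at 1459.9 ± 187, 1437 ± 675 and 1322 ± 403 FPKM (SD, n = 3).

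The profile of alternative oxidase over the 9 libraries was then set beside those of all other tested models by Pearson's r on log2(FPKM + 1). The points are libraries of 3 groups that share their processing, so r mainly records the contrast between groups, and it is given as a description. The median r over 8623 models was 0.027, with 40 models above 0.9 and 10 below -0.9. Among the tested chain genes of complexes I to IV and cytochrome c, r ran from -0.359 to 0.853 with a median of 0.248, and the greatest value belonged to cytochrome c evm.TU.Contig228.83. Prohibitin-2 had 0.804, the 10 kDa heat shock protein 0.78 and the uncoupling protein 3 match 0.697.

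Among the 5773 tested models with a protein name, the 10 most like alternative oxidase had r between 0.942 and 0.993. In all 10 the low temperature libraries lay below every room and every high temperature library, a feature the choice by likeness favours. Of all models tested, 15.3% had no overlap between low and room and 17.2% between high and low temperature, in either direction. The closest was the match to neuropeptide FF receptor 2, evm.TU.Contig6.76, a G protein-coupled receptor, at 7.56, 5.36 and 7.38 FPKM at room, 6.38, 9.42 and 6.8 at high and 1.82, 1.92 and 2.43 at low temperature. Its r was 0.993, and 0.92 after each group's mean was removed, since room 2 was the lowest and high 2 the highest of their groups in both genes.

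The next were the match to solute carrier family 35 member B1, a nucleotide sugar transporter family member (r = 0.98), and the match to Runt-related transcription factor 1 (0.972). The match to sequestosome-1, an autophagy receptor, had r = 0.955 and stood at 72.4 ± 5.66, 99.3 ± 17.8 and 32.5 ± 4.29 FPKM (SD, n = 3) at room, high and low temperature. Chaperones were represented by major heat shock 70 kDa protein Ab, evm.TU.Contig769.21, with r = 0.95, and by the co-chaperone DnaJ homolog subfamily B member 4, evm.TU.Contig80.202, with 0.949. The first stood at 9.95 ± 2.62, 9 ± 3.09 and 0.775 ± 0.596 FPKM and the second at 34.7 ± 5.29, 58.9 ± 5.77 and 10.4 ± 1.49 FPKM (SD, n = 3). Unlike alternative oxidase, the DnaJ, sequestosome-1 and solute carrier models had every high temperature library above every room temperature library. Over all models tested, 16.5% had no overlap between these groups, in either direction. In that order, the limma adjusted p for high against room was 0.361, 0.606 and 0.915.

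The remaining 4 were cofilin, an actin-severing protein (r = 0.948), the transcription factor C/EBP gamma (0.946), hematopoietic prostaglandin D synthase (0.945) and evm.TU.Contig107.27, a match to a sterol hydroxylase of the cytochrome P450 family (0.942). For C/EBP gamma the likeness lay between groups alone. Its r within groups was -0.38, and it stood at 27.7 ± 3, 27.7 ± 6.68 and 4.8 ± 0.812 FPKM (SD, n = 3) at room, high and low temperature. Cofilin was far more abundant, at 275 ± 23.8, 302 ± 7.55 and 191 ± 19.6 FPKM (SD, n = 3).

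**Figure D5:**
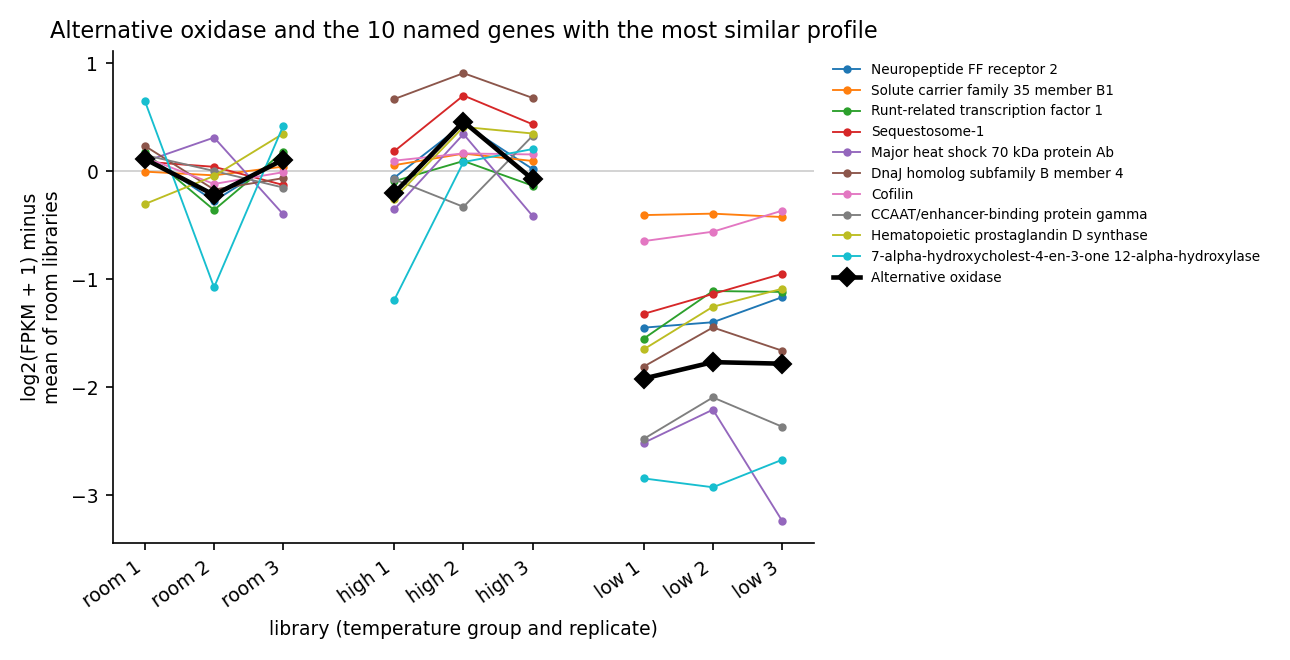
Level on the log2(FPKM + 1) scale minus the mean of the room temperature libraries (vertical axis), in each of 9 libraries, for alternative oxidase (black diamonds) and the 10 named genes of highest correlation with it (coloured lines). All lie below 0 in the 3 low temperature libraries, while in the 3 high temperature libraries alternative oxidase lies on both sides of 0.

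The 5 named models most unlike alternative oxidase had r between -0.933 and -0.908. In each the low temperature libraries lay above every room temperature library, a feature the choice by unlikeness favours. Over all models tested, 15.3% had no overlap between these groups, in either direction. The lowest was the match to pleckstrin homology domain-containing family G member 7, evm.TU.Contig120.99, at 3.52 ± 0.576, 4.15 ± 0.584 and 6.51 ± 0.325 FPKM (SD, n = 3) at room, high and low temperature. Regucalcin, evm.TU.Contig80.76, a calcium-binding protein, stood at 1.03 ± 0.31, 1.24 ± 0.693 and 3.31 ± 0.766 FPKM (SD, n = 3). The others matched forkhead box protein P1, transcription elongation regulator 1 and RNA-binding motif, single-stranded-interacting protein 3. None of the unlike genes was a respiratory chain gene, but only 48 of the 8624 models tested were, so their absence carries no weight.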

How the data were processed

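Adductor muscle RNA-seq of 9 libraries was analysed from 1 gene table of FPKM values deposited by the authors. Reads were aligned with HISAT2 2.0.4 and counted with HTSeq 0.9.1, per the submitters' processing notes. FPKM times gene length was a whole multiple of 1 step per library, to within 3.66e-08, so the authors counted whole reads, and these were recovered. The implied divisor was 13972000 times a size factor, not the library's own total.

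Models with a mean of at least 1 FPKM were tested on log2(FPKM + 1), which understates changes of low genes. limma 3.58.1 in R 4.3.3 was fitted to all 9 libraries with 1 mean per group, trended empirical Bayes and Benjamini-Hochberg adjustment over all models tested. Recovery of known changes was checked on simulated data. Alternatives were another pseudocount and filters, 3 scalings, other variance models, a replicate block, voom on recovered reads and leaving out libraries. Columns of samples that could not be mapped numbered 0.

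Alternative oxidase, the gene lists and the tests were chosen with earlier results of these data known. In each list the 2 members of highest mean FPKM and the member of lowest p in each comparison could be named, as could the 10 named models most like alternative oxidase, the 5 most unlike and 3 neighbours on each side. The complex I model evm.TU.Contig830.9 was named in addition, beside evm.TU.Contig126.97, for its like annotation. Figures were drawn with matplotlib 3.10.9. Sequences were not analysed here.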

Additional observations from a re-analysis of the deposited data

How the results depend on the processing

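Alternative oxidase kept the direction of its low minus room and high minus low differences under every alternative that gave a value. The log2 differences were -2.64 and 2.71 with a pseudocount of 0.1, and -2.78 and 2.84 with voom on recovered reads, both of which shrink low values less. Leaving out 1 library gave -1.93 to -1.77 and 1.68 to 2.02. At a minimum mean of 5 FPKM the gene, at 3.85, was not tested. The precision of its low values is limited by 11 to 15 reads a library.

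The count of models called was less stable. For low against room, 13 became 0 with no filter, 8 at a minimum of 5 FPKM, 7 with scaling by assigned reads, 8 with quantile normalization, 31 with array quality weights, 8 with voom and 2 without both high 3 and low 3, a choice made after seeing the data. Leaving out 1 library gave 0 (low 1 or low 3) to 12, with 5 without low 2, 6 without room 1, 7 without room 3 and 8 without high 3. For high against low, 14 became 4 with no filter, 89 with array quality weights and 1 without both libraries, and leaving out 1 library gave 6 (low 2 or low 3) to 19, with 9 without low 1. For high against room that range was 0 to 2, with 2 without room 1 or high 2 and 1 without room 3. The cause of these moves was not tested. Context genes called in high against low numbered 1 with only the compared groups in the fit, 2 with array quality weights and 0 to 1 on leaving out 1 library (1 without room 2), and 0 in the other comparisons throughout.

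In their deviations from the group means, same-numbered libraries of different groups correlated between -0.103 and 0.242. Differently numbered ones correlated between -0.224 and 0.12. These ranges overlap and do not settle whether replicate numbers pair the libraries. With a replicate block 10, 0 and 18 models were called in low against room, high against room and high against low, and no context gene was. Of the list medians recomputed 15 moved beyond the spread and 1182 did not. Of the named gene differences 245 moved, 18 passed the threshold and 61 no longer did, 4044 kept their call, and 0 changed sign with a call.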
